A study of Danio rerio with 18 samples.

Results

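In zebrafish lacking sinhcaf, the genotype effect was called as differing between mature eggs and FG follicles for 733 of 10547 tested genes (6.95%). The members were chosen by the interaction of genotype and stage, that is, mutant minus wild type in eggs minus the same difference in FG follicles. Values were taken as log2(FPKM + 1), where FPKM is fragments per kilobase of gene model scaled to library size, and a gene was tested where 4 or more of the 18 libraries reached an FPKM of 1. Genes were called at a Benjamini-Hochberg adjusted p under 0.05 in limma. A true reversal, with the mutant called higher at one stage and called lower at the other, was found for 24 genes. In 283 genes the mean FPKM was under 1 in both genotypes of one stage, 261 in eggs and 22 in FG follicles. Of the others, 167 were called in eggs alone, 170 in FG follicles alone and 22 at neither stage. Another 66 were called at both stages in the same direction with unequal size, and 1 gene was low at both stages. On the log2(FPKM + 1) scale, a change can hardly be seen at a stage where a gene is near 0. The 283 genes therefore do not by themselves show that the effect differs. With 0.1 added to the FPKM in place of 1, 372 genes were called.

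The libraries came from ovaries of wild-type and sinhcaf-/- zebrafish, with 5 wild-type and 5 mutant libraries of mature eggs and 4 wild-type and 4 mutant libraries of follicles that the labels call FG without spelling it out. A library holds pooled eggs or pooled follicles from 1 fish, which makes the female the replicate. The sources used here give neither the mutant allele nor the age or strain of the fish, and do not say whether eggs and follicles were taken from the same females. Total RNA with an integrity number of at least 7 was made into TruSeq stranded mRNA libraries.

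The sinhcaf product belongs to the SIN3 co-repressor, which carries histone deacetylases to target genes, where they take acetyl groups off histones. A follicle holds an oocyte with its layers of somatic granulosa and theca cells, whereas a mature egg has left those layers and carries stored maternal mRNA, with little or no new transcription. Maternal mRNA levels late in oogenesis therefore follow storage, translation and decay as well as earlier transcription. In bulk samples of this kind, fewer cells of a type and less RNA per cell cannot be told apart.

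Sinhcaf itself, the targeted gene, had a lower mean in the mutant at both stages, and in limma only its fall in FG follicles was called. Sinhcaf FPKM was 0.361, 0.791, 0.421, 1.59 and 0.469 in the wild-type egg libraries and 0.217, 0.22, 0.184, 0.269 and 0.351 in the mutant ones. It was 1.99, 2.91, 3.05 and 0.615 in the wild-type FG libraries and 0.359, 0.649, 0.383 and 1.04 in the mutant ones. The genotypes did not overlap in eggs and overlapped in FG follicles, where wild-type library 4 lay below mutant libraries 2 and 4. The effect was −0.42 in eggs (adjusted p = 0.21, limma) and −0.90 in FG follicles (adjusted p = 0.0115, limma). The difference between them was 0.47 (SE 0.33, adjusted p = 0.418, limma). Exact permutation of genotype labels within a stage gave p = 0.00794 in eggs and p = 0.0857 in FG follicles. Both egg means, 0.726 and 0.248, were under 1, where a change is small on the log2(FPKM + 1) scale. The oocyte linker histone h1m stood at a mean FPKM of 1910 in wild-type eggs and 1300 in wild-type FG follicles.

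Summed FPKM was 375178 to 404150 in wild-type eggs, 376795 to 464199 in mutant eggs, 309889 to 340960 in wild-type FG follicles and 287120 to 305601 in mutant FG follicles. Depth is unknown, since the table holds no counts. The genotype difference in summed FPKM was 60841 higher in eggs than in FG follicles (exact permutation of genotype labels within each stage, two-sided, p = 0.00329, adjusted p = 0.00822 over 5 library measures). That test takes no genotype effect at either stage as its null. Egg libraries 1 to 3 stood apart from 4 and 5 in both genotypes, with 6929 to 7424 against 7682 to 7917 genes reaching an FPKM of 1. Fitted with all FG libraries, egg libraries 1 to 3 gave 890 calls and 56 reversals, and egg libraries 4 and 5 gave 506 calls and 31 reversals. Mutant FG libraries 1 and 3 were the most alike within any group (r = 0.9943 over log2 values of genes, against 0.9929 for the next pair), and averaging them into 1 left 564 calls and 13 reversals.

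Since summed FPKM moved in opposite directions, the scaling of libraries bears on every direction below. Of the 733 calls, 446 (60.8%) had a higher genotype effect in eggs than in FG follicles and 287 a lower one. Higher and lower calls below have this meaning. Over all tested genes the difference was above 0 for 6109 of 10547 (57.9%). After rescaling each library to the same sum (TPM) there were 473 calls, of which 34.0% were higher. With the mitochondrial genome left out of that sum there were 484, of which 70.2% were higher. Median-of-ratios scaling gave 501 calls (45.7% higher) and quantile normalization 838 (54.2% higher). The median difference over all tested genes was 0.08 with the deposited values and −0.11 with TPM. A core of 225 genes (2.13% of those tested), 103 higher and 122 lower, was called in the same direction under the deposited values and the other 4 scalings, and genes of that core are called scaling-stable below.

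**Figure D1:**
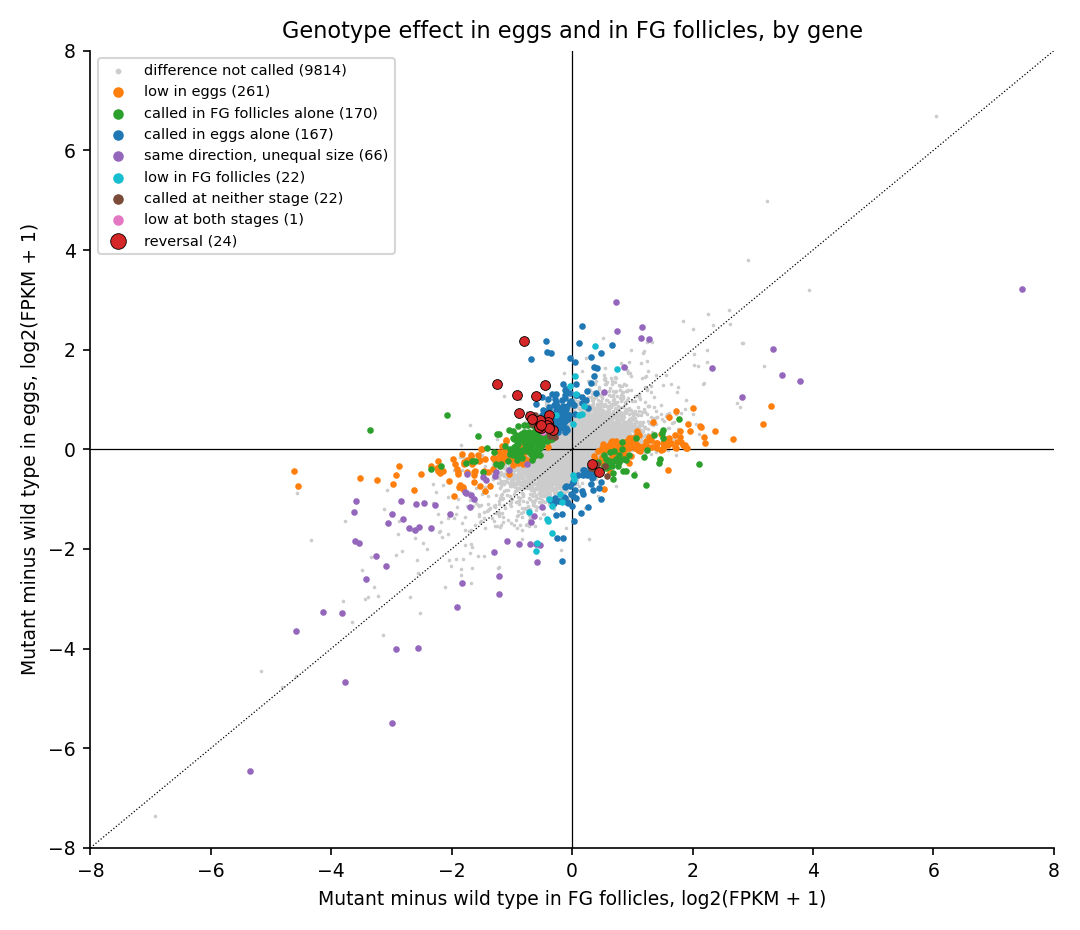
Genotype effect (mutant minus wild type, log2(FPKM + 1)) in eggs, vertical axis, against that in FG follicles, horizontal axis, 1 point for each of 10547 genes. Colours mark the classes of the 733 genes with a called difference, and the dotted line marks equal effects. The 24 reversals sit in the upper left and lower right, while the 261 genes low in eggs lie close to the horizontal axis.

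Of all tested genes, 15.1% had a called genotype effect in eggs and 23.5% in FG follicles. Of the 24 reversals (0.228% of tested genes), 22 rose in mutant eggs and fell in mutant FG follicles, and 2, nup98 and cnp, did the opposite. Their differences ran from 0.62 to 2.96 in size, with a median effect of 0.52 in eggs and −0.50 in FG follicles. The genotypes did not overlap in eggs for 12 of them, in FG follicles for 21 and at both stages for 10. Over all tested genes, the genotypes did not overlap in eggs for 11.1%, in FG follicles for 29.0%, and at both stages for 6.13%, and did so in opposite directions for 0.247%. In wild-type fish 20 of the 24 were lower in eggs than in FG follicles, as were 7397 of all 10547 tested genes. The wild-type gap between stages was narrower in the mutant for 15 of 24, against 51.3% of all tested genes. The split of directions turned with TPM, which gave 16 reversals, 5 rising and 11 falling in mutant eggs, 7 of them shared with the 24. It kept its direction with TPM without the mitochondrial genome (23 rising and 1 falling), median-of-ratios scaling (13 and 5) and quantile normalization (25 and 13).

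Of the 24, 4 were reversals under all 5 scalings (arfgap1, si:dkey-121a9.3, zgc:171480 and tmem30b), and 4 more under 4 of the 5 (denr, tjp3, vps37c and samd13). Another 6 were reversals with the deposited values alone: mt-nd5, ndnl2, gcna, hif1an, ldb2a and si:ch211-226m16.2. When each library was left out in turn, 8 of 24 stayed reversals in all 18 fits, and 6 did so in at most 9. Deviations of same-numbered wild-type and mutant egg libraries correlated at 0.112 to 0.447, which does not show that they are pairs. With that number as a block among eggs the reversals came to 72, of 1174 calls. Just inside the threshold was si:ch211-226m16.2, with an adjusted p of 0.0468 in eggs and 0.0477 in FG follicles. Just outside were pctp, at 0.0519 in eggs and 0.0329 in FG follicles, and hirip3, at 0.0526 and 0.00114.

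The largest reversal was arfgap1, which encodes the GTPase-activating protein of the small GTPase Arf1 on the Golgi. Its FPKM was 2.52, 3.06, 2.4, 2.25 and 3.37 in wild-type eggs and 14.1, 17.7, 13.4, 14.8 and 18.9 in mutant eggs. In FG follicles it was 7.63, 10.6, 10.2 and 8.01 in the wild type and 3.79, 7.43, 4.15 and 4.39 in the mutant. The genotypes did not overlap at either stage, although mutant FG library 2 came close to the lowest wild-type one. The effect was 2.17 in eggs (adjusted p = 9.47e-09) and −0.79 in FG follicles (adjusted p = 0.00314), a difference of 2.96 (SE 0.24, adjusted p = 1.85e-07, limma). The order of the stages was thus turned over: wild-type follicles held more arfgap1 than wild-type eggs, and mutant follicles held less than mutant eggs. It was a reversal in all 36 alternative fits.

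The other gene that was a reversal in all 36 fits was zgc:171480, which the table annotates as a constituent of the large subunit of the mitochondrial ribosome. Wild-type eggs had an FPKM of 2.13, 0.772, 1.46, 3.14 and 1.62, and mutant eggs 3.36, 5.98, 4.29, 6.88 and 4.03. Wild-type FG follicles had 85.4, 106, 96.9 and 103, and mutant ones 44.2, 48.6, 59.2 and 54.4. No mutant library overlapped the wild type at either stage. The gene was higher by 1.09 in mutant eggs and lower by 0.91 in mutant follicles (effect −0.91), with a difference of 2.0 (SE 0.29, adjusted p = 0.000256).

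Si:dkey-121a9.3, to which the table gives no function, read 0.417, 1.59, 1.6, 2.17 and 2.85 in wild-type eggs and 5.73, 9.26, 7.94, 4.49 and 2.16 in mutant eggs. FG follicles read 15.2, 19.3, 17.3 and 17.3 in the wild type and 6.56, 6.88, 8.44 and 5.23 in the mutant. Mutant egg library 5 fell within the wild-type range, and in FG follicles there was no overlap. The effects were 1.3 and −1.24, a difference of 2.55 (SE 0.42, adjusted p = 0.000769). With egg libraries 4 and 5 alone it was no longer a reversal, as held for others of the 24, among them tmem30b, tjp3 and aatf. Samd13 was not a reversal with egg libraries 1 to 3 alone.

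Tmem30b encodes a CDC50-family partner of the flippases that keep phospholipids asymmetric between the leaflets of membranes. FPKM was 4.12, 8.26, 4.44, 10.8 and 7.66 in wild-type eggs, and 11.7, 13.1, 12.7, 9.83 and 11.2 in mutant eggs. FG follicles had 44.3, 39.3, 52.4 and 39.2, and 25.3, 20.7, 25.5 and 21.9 in the mutant. Only mutant egg library 4 overlapped the wild type, and the FG groups were apart. The effects were 0.72 and −0.88, and the difference was 1.6 (SE 0.28, adjusted p = 0.00143).

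Denr, whose product acts with a partner in ribosome recycling and translation reinitiation, had the largest difference of the 4 genes reversed under 4 scalings. Egg FPKM was 5.59, 5.01, 4.26, 4.15 and 6.93 in the wild type and 9.87, 11.7, 10.1, 15.1 and 13 in the mutant. FG follicle FPKM was 52, 58.4, 59.2 and 60.1 in the wild type and 33.8, 39.7, 30.6 and 47.3 in the mutant. All libraries were apart at both stages, with effects of 1.07 and −0.61 and a difference of 1.67 (SE 0.22, adjusted p = 8.26e-05).

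Samd13, a gene named for its sterile alpha motif, read between 11 and 11.7 in all 5 wild-type eggs and between 12.5 and 20.9 in mutant eggs. Wild-type FG follicles read 43.1 to 54.4 and mutant ones 33.7 to 38. Tjp3, a scaffold protein of tight junctions, rose in eggs from 27.3, 30.9, 25.4, 36.5 and 33.5 to 37.9, 42.1, 46.2, 45.1 and 45.5, and fell in FG follicles from 29.6, 34.2, 40.1 and 27 to 23.9, 23, 22.8 and 23.2. Unlike the genes above, it stood at nearly the same level in wild-type eggs and follicles (mean 30.7 and 32.7). Vps37c, a subunit of the ESCRT-I complex of endosomal sorting, rose in eggs from 2.52 to 3.73 over the wild-type libraries to 3.87 to 5.59 over the mutant ones, and fell in FG follicles from 9.2 to 9.75 to 5.8 to 6.62. The genotypes of these 3 genes did not overlap at either stage, and their differences were 0.95 (samd13, SE 0.17), 0.96 (tjp3, SE 0.17) and 0.95 (vps37c, SE 0.18), with adjusted p of 0.00152, 0.00214 and 0.00296.

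**Figure D2:**
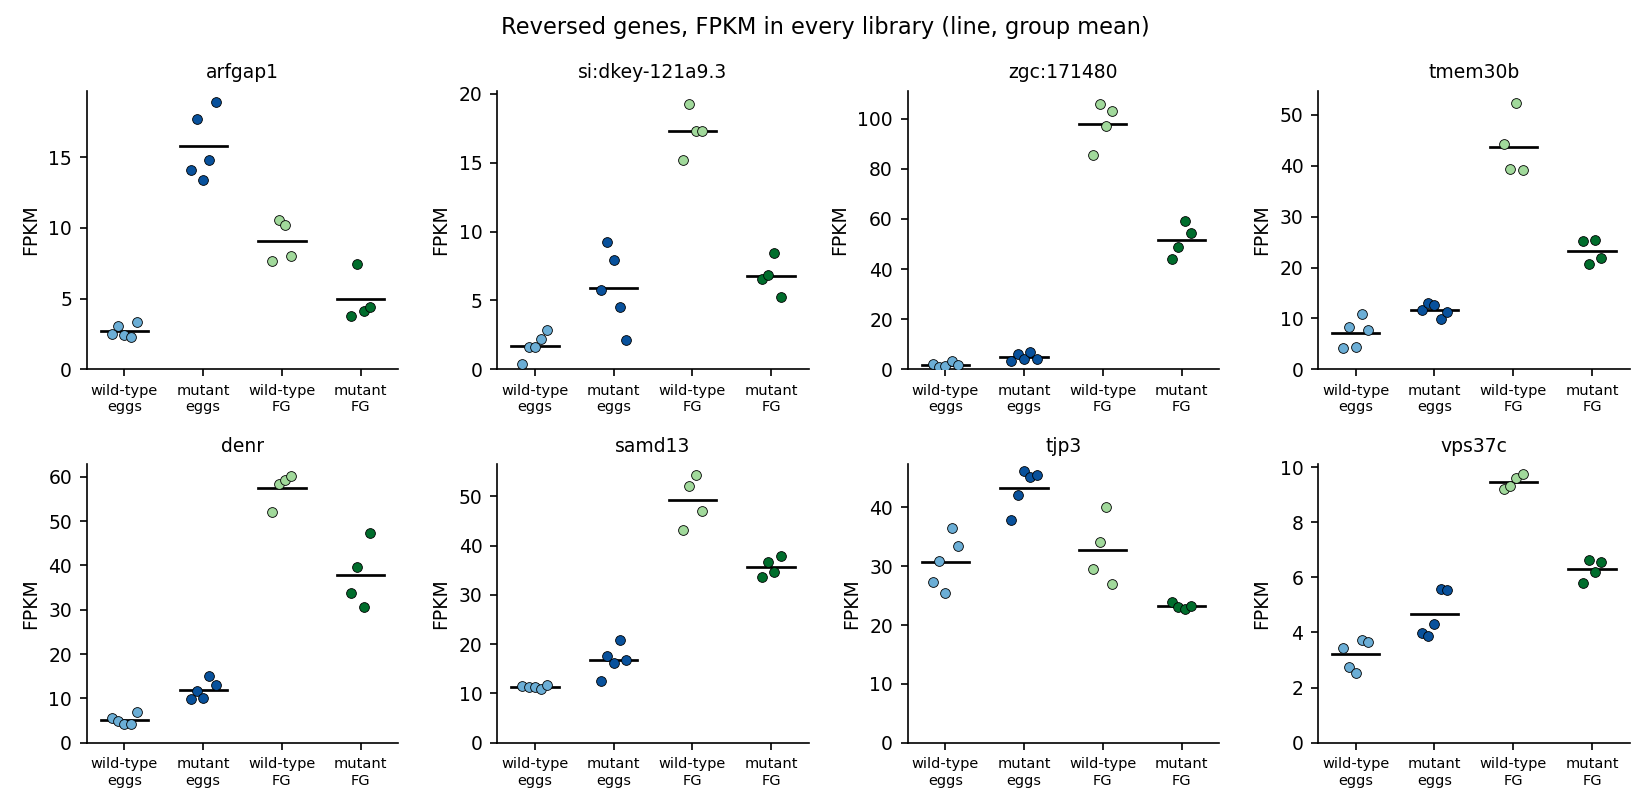
FPKM of the 8 genes that were reversals under at least 4 of 5 scalings, 1 point for each library in 4 groups (5 wild-type and 5 mutant egg libraries, 4 wild-type and 4 mutant FG libraries), with a line at the group mean. Mutant means lie above the wild type in eggs and below it in FG follicles for all 8 genes, and for arfgap1 all mutant eggs also lie above all wild-type follicles.

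Among the remaining reversals that rose in eggs, zgc:56596, which RefSeq lists with the synonym ubl4a and the table places in the BAT3 complex for inserting tail-anchored proteins into the endoplasmic reticulum, showed the smallest adjusted p after arfgap1. Its FPKM was 13.5, 17.8, 13.7, 12.9 and 15.8 in wild-type eggs against 31.7, 40.7, 46.1, 38.6 and 32.2 in mutant eggs, and 122 to 136 in wild-type follicles against 93.6, 94.8, 94.9 and 96.6 in mutant ones. The difference was 1.75 (SE 0.16, adjusted p = 1.68e-06), with no overlap at either stage. It was a reversal under 3 of 5 scalings.

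Ngdn, which acts in small ribosomal subunit assembly and binds the cap-binding protein eIF4E, had effects of 0.67 and −0.70. The spliceosome-associated gpkow had effects of 0.58 and −0.55, and aatf, a nucleolar protein of ribosome assembly, 0.49 and −0.48. The splicing factor srsf1a read 318, 320, 314, 360 and 387 in wild-type eggs and 533, 520, 588, 368 and 352 in mutant eggs, so that its rise was carried by mutant egg libraries 1 to 3 while 4 and 5 lay inside the wild-type range. In FG follicles srsf1a fell from 103, 95.3, 82.5 and 87.8 to 61, 58.9, 63.4 and 65.6, without overlap. It was the 1 reversal among 71 tested genes of pre-mRNA splicing.

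Of the others, opa3, a mitochondrial protein mutated in human optic atrophy, had effects of 0.60 and −0.67, and slc25a38b, a mitochondrial glycine carrier in other species, 0.39 and −0.32. Gcna, a peptidase of germ cell nuclei, had 0.54 and −0.40. Hif1an, the asparaginyl hydroxylase that inhibits HIF-1, had 0.45 and −0.39. Ndnl2, the counterpart of a subunit of the SMC5/6 complex, had 0.69 and −0.38, and the LIM-domain adaptor ldb2a had 0.43 and −0.38. Lrrfip2 had 0.49 and −0.41, and si:ch211-226m16.2 had 0.49 and −0.51.

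Of the 2 genes reversed the other way, the nucleoporin nup98 read 36.6, 37, 42.5, 36.2 and 29.5 in wild-type eggs and 25, 23.9, 23, 28.1 and 31.6 in mutant eggs. Its FG values were 9.6, 8.59, 14.8 and 12.5, and 15.5, 15.1, 13.8 and 18 in the mutant. The genotypes overlapped at both stages. Cnp, a 2',3'-cyclic nucleotide phosphodiesterase, averaged 85.8 in wild-type and 69.9 in mutant eggs, and 108 in wild-type and 135 in mutant FG follicles. The differences were −0.90 (nup98, adjusted p = 0.0128) and −0.62 (cnp, adjusted p = 0.0123). Both differences were scaling-stable, but the reversal itself was kept in only 4 (nup98) and 3 (cnp) of the 18 fits that each left out 1 library.

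The mitochondrial genome encodes 13 subunits of the respiratory chain and ATP synthase, and its transcripts made the most uniform group. All 13 were estimated higher in mutant eggs and lower in mutant FG follicles, and 12 of 13 passed the test of the difference, all higher, against 4.23% of all tested genes. The exception was mt-co2 (0.97, adjusted p = 0.0773). The median difference was 1.15, beside 0.08 over all genes, made of 0.39 in eggs and −0.70 in FG follicles. Within a stage, the egg effect was called for 1 gene and the FG effect for 9. Mt-nd5 was therefore the 1 reversal among them by call.

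The share of summed FPKM that came from these 13 genes was 37.9%, 37.1%, 34.2%, 35.3% and 33.1% in wild-type egg libraries and 51.0%, 45.3%, 37.1%, 45.65% and 38.1% in mutant ones. Among FG libraries the share was 14.6%, 14.0%, 14.8% and 17.7%, and 8.25%, 12.25%, 7.64% and 13.8% in the mutant. Mutant egg library 3 alone lay within the wild-type range, and the FG groups were apart. The means were 35.5% ± 1.97 and 43.4% ± 5.81 in eggs (SD, n = 5) and 15.3% ± 1.67 and 10.5% ± 3.0 in FG follicles (SD, n = 4). The difference of the genotype differences was 12.7 percentage points (exact permutation within stages, two-sided, p = 0.000454, adjusted p = 0.00227). The smallest p that this design allows is 0.000113.

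Mt-nd5, a complex I subunit and the 1 mitochondrial gene called at both stages, read 3420, 3240, 3030, 3350 and 2920 in wild-type eggs and 6120, 5410, 3690, 5340 and 3820 in mutant ones. FG follicles gave 937, 706, 859 and 1110, and 510, 709, 490 and 806 in the mutant, with overlap. Mt-nd6, the complex I subunit on the opposite strand to most others, had the largest difference of the 13 (1.43, SE 0.28, adjusted p = 0.00407) and was the 1 gene of the 13 that was scaling-stable. Mt-atp6, of ATP synthase, fell in FG follicles from 7850, 5970, 4670 and 8110 to 2720, 3540, 2480 and 4930, with 1 mutant library inside the wild-type range. Under other scalings the number called was 8 of 13 with TPM, 11 with TPM leaving out the mitochondrial sum, 1 with median-of-ratios scaling and 6 with quantile normalization. Quantile normalization turned the sign for mt-cyb (−0.06), mt-atp8 (−0.10) and mt-co1 (−0.07).

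**Figure D3:**
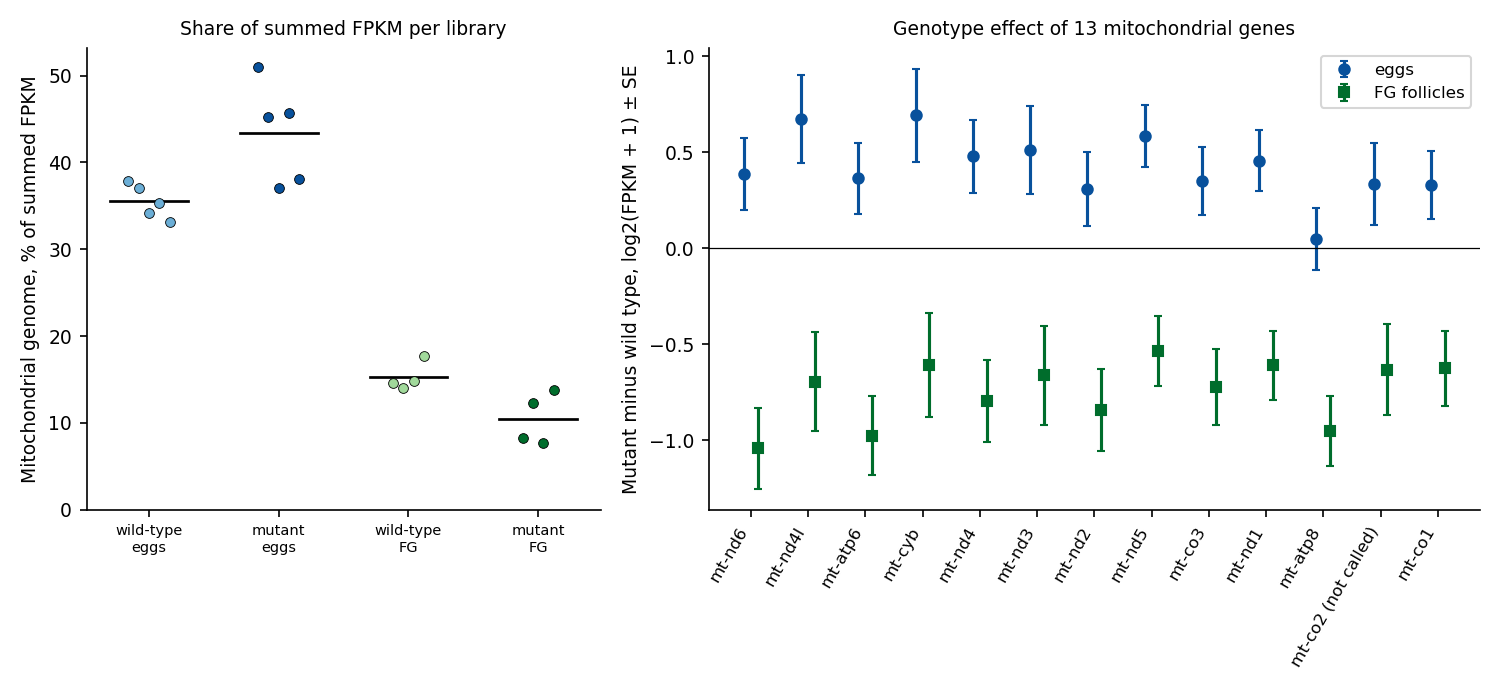
Left, percent of summed FPKM from the mitochondrial genome in each library, with a line at the group mean (5 and 5 egg libraries, 4 and 4 FG libraries). Right, genotype effect with its standard error for each of the 13 mitochondrial genes, in eggs (circles) and FG follicles (squares), ordered by the size of the difference. Every egg estimate lies above 0 and every FG estimate below it.

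Nuclear genes for mitochondrial ribosomal proteins were called higher in 7 of 67 and lower in 0, a share of 10.4% against 4.23% higher and 6.95% either way over all tested genes, with a median difference of 0.28. The median was 0.06 with TPM. The 7 fell into several classes. Mrpl34 was called in eggs alone (24 to 48.5 in mean FPKM, against 132 to 107 in FG follicles) and so was mrpl19. Mrps34 was called in FG follicles alone, with 44, 74.6, 68.3 and 60.1 in the wild type against 23.8, 16.2, 24.8 and 24.5 in the mutant. It was near 2 FPKM in all egg libraries of both genotypes, and the difference was 1.45 (SE 0.23, adjusted p = 0.000728). Mrpl51, mrps33 and mrpl1 were low in eggs, and mrps22 fell at both stages. With median-of-ratios scaling the mrps22 difference was 0.00. Of 87 tested nuclear genes of the respiratory chain, 3 were called, ndufv3 and ndufb10 higher and ndufa9b lower.

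With the deposited values, 118 of the 167 genes called in eggs alone rose there and 49 fell. Of all 10547 tested genes, 5988 were estimated higher in mutant eggs. Among the 55 scaling-stable genes of the class, 27 rose and 28 fell. This class is defined by thresholds, and for 126 of the 167 the FG estimate pointed the other way without passing. Estimates had opposite signs for 35% of all tested genes. Choosing members by the difference of effects itself favours opposite signs. The call of the difference held with a pseudocount of 0.1 for 110, where 3.53% of all tested genes were called. Among the largest rises, tcp1, a subunit of the cytosolic chaperonin, read 8.84, 4.68, 7.62, 5.68 and 17.2 in wild-type eggs and 30.8, 43.4, 39.9, 40.4 and 38.7 in mutant eggs. FG follicles read 67.4, 42.5, 41.2 and 68.3, and 60.1, 55.1, 62.3 and 54.1 in the mutant, with the mutant inside the wild-type range. The difference was 2.02 (SE 0.35, adjusted p = 0.00147).

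Uxt, a prefoldin-like chaperone, rose from 2.7, 1.95, 1.68, 2.56 and 3.17 to 11.2, 15.7, 15.6, 11.2 and 7.47 in eggs. Follicle values were 36.5, 38.6, 39.4 and 39.2, and 26.4, 24.4, 38.6 and 32.5 in the mutant, an effect of −0.35 (adjusted p = 0.225) with a difference of 2.28 (SE 0.27, adjusted p = 2.65e-05). Chordc1b, a co-chaperone of HSP90, had an egg effect of 0.90 and an FG estimate of −0.59 (adjusted p = 0.0898). Of 73 tested chaperones and heat shock genes, 5 were called and all were higher (tcp1, dnajc15, bag4, dnajc17 and dnajc4), which at 6.85% is close to the background of 6.95%. The median over the list was 0.03.

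Hmgb2b, a high-mobility-group chromatin protein, rose in eggs, from 261, 342, 236, 313 and 249 in the wild type to 566, 566, 752, 580 and 574 in the mutant. Its FG follicle values were 153, 179, 147 and 211, and 142, 136, 128 and 137 in the mutant, apart but not called (effect −0.33, adjusted p = 0.0881). The difference of 1.45 (SE 0.18) had an adjusted p of 5.67e-05. Hint3, a histidine triad hydrolase, was nearly absent from wild-type eggs (0.0893, 0, 0.173, 0.193 and 0.378) and read 1.87, 3.72, 3.81, 4.29 and 4.25 in mutant eggs. Its FG libraries overlapped, at 1.81, 1.66, 3.18 and 1.36 against 1.16, 2.07, 0.718 and 1. Rbfa, a maturation factor of the mitochondrial ribosome in human cells, had the largest difference of the class (2.61), but with an SE of 0.71 and an overlap in eggs, and it lost its call in 16 of 36 alternative fits.

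The other rises named by rule were nudt3a, a diphosphoinositol polyphosphate phosphohydrolase (13 to 46.5), the glutathione transferase gstr (2.34 to 11.2), thap4 (2.08 to 7.22) and zbtb3, a zinc finger gene (3.35 to 15.2), all as mean FPKM in wild-type and mutant eggs. Cxcr4b, a chemokine receptor, averaged 1.15 and 8.34 in eggs, against a mean of 0.318 in wild-type and 0.481, 2.39, 0.585 and 1.32 in mutant FG follicles, where its estimate of 0.67 had an adjusted p of 0.0617. It was the 1 called gene of 4 tested leukocyte markers. Summed FPKM of the 19 leukocyte markers was 3.67 to 12 in wild-type eggs and 11.9 to 17.1 in mutant eggs. That sum includes cxcr4b itself, so it is no separate measure of leukocytes. Of the 19, 12 stayed under an FPKM of 1 in all libraries, with cd79a, mpeg1.1 and lck at 0. A part of leukocytes in this result was not tested.

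Among the 49 genes that fell in eggs alone, fancm led those with a proper symbol, as the naming rule below requires. It encodes the DNA translocase of the Fanconi anemia pathway, and its FPKM was 35, 15.6, 34.4, 14.1 and 15.3 in wild-type eggs and 3, 4.38, 3.62, 3.54 and 3.92 in mutant eggs. FG follicles showed 3.13, 3.41, 3.54 and 4.4, and 3.79, 2.69, 3.43 and 2.57 in the mutant. Mutant eggs therefore stood at the level of the follicles, and the difference was −2.07 (SE 0.33, adjusted p = 0.000664). Mknk2a, a kinase of the cap-binding factor eIF4E, fell from 218, 183, 251, 154 and 143 to 110, 85.5, 77.5, 77.1 and 120 in eggs. Values in FG follicles were 35.9, 27.4, 18.9 and 25.3, and 43.7, 36.2, 45.8 and 26, an estimate of 0.48 (adjusted p = 0.127).

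Further falls in eggs alone were mob1ba, an activator of Hippo pathway kinases (mean 15.6 to 6.72), trim105 (10.4 to 3.78), the protease inhibitor spint2 (25.7 to 14.5), mfsd12a (34 to 15.1), the lysosomal protease legumain, lgmn (31.9 to 17), the translation initiation subunit eif3d (12.9 to 4.72), the scavenger decapping enzyme dcps (25.4 to 9.64) and trpt1, a tRNA phosphotransferase (1.39 to 0.497). Of these, lgmn was not scaling-stable. Cytosolic ribosomal proteins gave 3 calls of 81, all lower and in eggs alone, among them rpl23 (568 to 336) and rps13 (86.8 to 54.5). At 3.70% that was under the background of 6.95%, and none of the 3 held at a pseudocount of 0.1 or was scaling-stable. The median difference of the 81 was −0.23, beside 0.08 over all tested genes. It was above 0 for 16 of the 81, against 6109 of all 10547. Calls came to 7 with TPM, 2 with TPM without the mitochondrial genome, 0 with median-of-ratios scaling and 3 with quantile normalization. The share of summed FPKM from all these genes averaged 4.19% and 2.80% in wild-type and mutant eggs and 3.85% and 3.52% in FG follicles, a difference of −1.05 points (exact permutation within stages, two-sided, p = 0.0633, adjusted p = 0.106).

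With the deposited values, 130 of the 170 genes called in FG follicles alone fell there and 40 rose. Of all 10547 tested genes, 5861 were estimated lower in mutant FG follicles. Among the 42 scaling-stable genes of the class, 19 fell and 23 rose. The egg estimate pointed the other way without passing for 126 of the 170, which the choice of members by the difference again favours. Emc1, a subunit of the complex that inserts membrane proteins into the endoplasmic reticulum, read 13.1, 16.9, 19.2 and 11.4 in wild-type FG follicles and 4.54, 4.03, 4.09 and 4.78 in mutant ones. Eggs read 2.52, 2.47, 2.87, 6.06 and 5.25, and 4.01, 5.14, 4.53, 3.75 and 5.74 in the mutant, so mutant follicles matched the egg level. The difference was 1.84 (SE 0.29, adjusted p = 0.000664). Rell1, a member of the RELT receptor family, fell in FG follicles from 122, 72.8, 130 and 85.4 to 40.6, 39, 38.7 and 53, with 11.5 to 16.2 in wild-type and 16.1 to 22 in mutant eggs.

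Znf653, a zinc finger gene, fell from a mean of 5.97 to 0.540 in FG follicles (effect −2.18) and averaged 1.17 and 0.637 in eggs. Spire1a, an actin nucleator of the family that acts in mouse oocyte polarity, fell from 7.26 to 1.48. Cluap1, a subunit of the ciliary transport machinery, fell from 7.47 to 2.49, fam3c from 19.6 to 5.33, and hirip3, a histone chaperone partner, from 45.6 to 24.4. Apart from fam3c, these were scaling-stable.

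Among rises in FG follicles alone of genes with a proper symbol, the first by the difference of effects were itm2bb and cyp2v1, a cytochrome P450. Itm2bb went from 11.1 to 33.7 (difference −1.93, SE 0.48, with overlap). The largest difference of the whole class, of either sign, was 3.74 in size, in a gene outside the naming rule. Cyp2v1 FPKM was 3.36, 4.7, 7.12 and 4.87 in wild-type FG follicles and 22, 13.1, 16.6 and 10.6 in mutant ones, without overlap. In eggs it was 1.77, 2.69, 1.55, 2.73 and 1.65, and 1.12, 0.795, 1.06, 2.28 and 2.99 in the mutant, where both groups shared a range. The difference was −1.71 (SE 0.35, adjusted p = 0.00562). Casd1, a sialic acid acetyltransferase (16 to 37.2), the microsomal glutathione transferase mgst2 (16.2 to 39.9) and the recycling endosome adaptor rab11fip1b (7.42 to 14.9) rose without overlap.

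At lower levels stood the serotonin transporter slc6a4a (0.886 to 2.22), dgat1b, which makes triacylglycerol (0.634 to 1.65), the ganglioside enzyme b4galnt1a (0.621 to 1.96) and moto (2.53 to 9.15), and the thioredoxin-related tmx3b rose from 8.97 to 17.2. Of these 5, b4galnt1a, dgat1b and moto did not hold at a pseudocount of 0.1. Gdf9, the oocyte growth factor that acts on granulosa cells, rose from 12.3 to 26.5 in FG follicles and averaged 10.3 and 12.3 in eggs, with a difference of −0.83 (SE 0.25, adjusted p = 0.0492). It lost its call in 24 of 36 alternative fits. Proteasome genes were called in 4 of 47, all higher, at 8.51% near the background of 6.95%: psma4, psme3 and psmc3 fell in FG follicles alone and the assembly factor psmg1 rose in eggs alone.

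**Figure D4:**
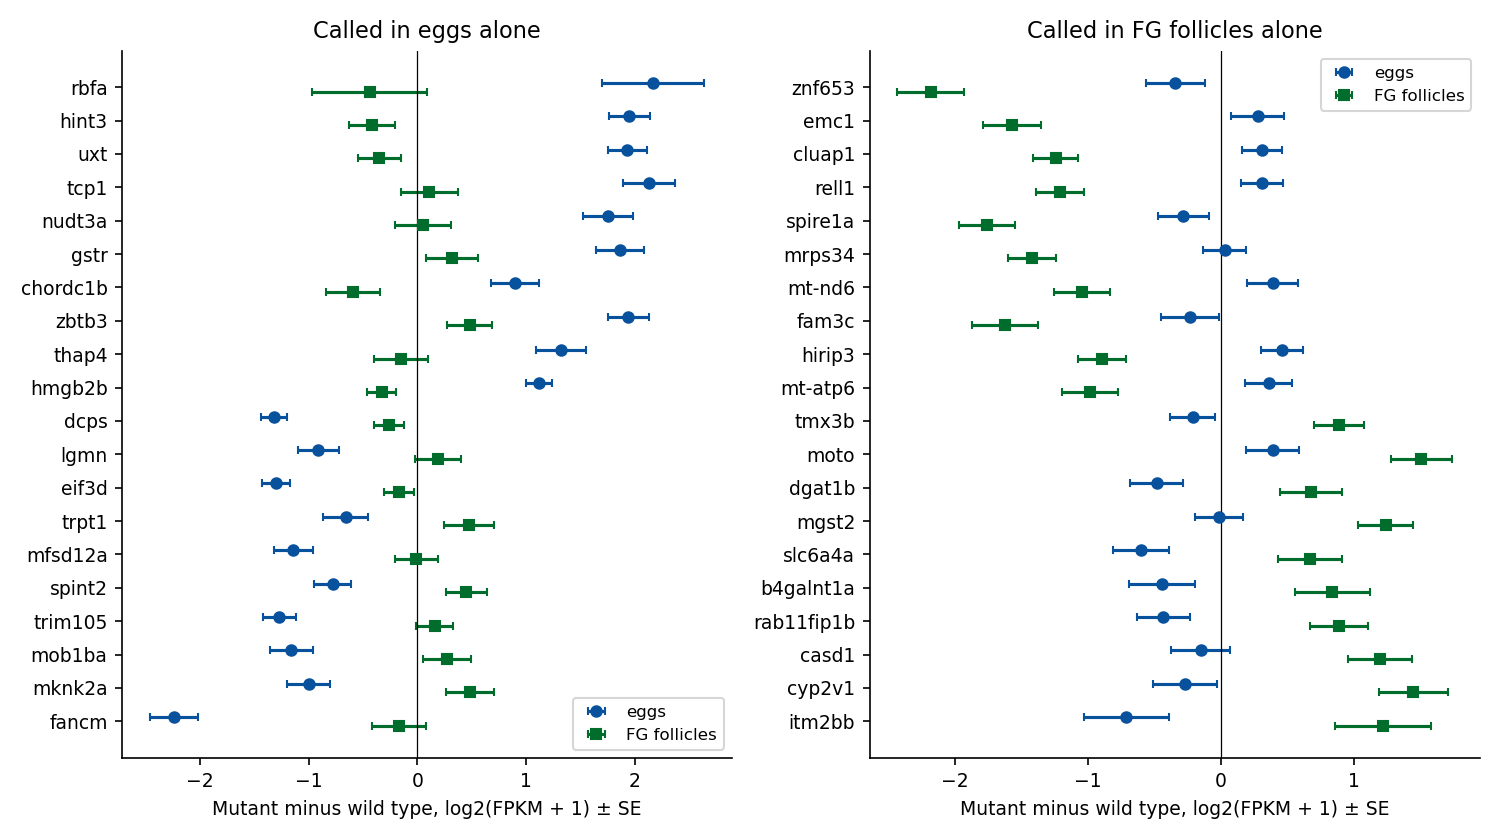
Genotype effect with its standard error in eggs (circles) and FG follicles (squares) for the genes named by rule among those called in eggs alone (left, 20 genes) and in FG follicles alone (right, 20 genes), ordered by the difference of effects. The farthest estimate at a stage with no call is that of itm2bb in eggs, at −0.71.

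In 66 genes both stages were called in the same direction and the sizes differed. Of these, 53 fell and 13 rose, and for 53 of the 66 the effect was larger at the stage where the wild-type level was higher. The size of a change on the log2(FPKM + 1) scale depends on how far the level stands above 1. With a pseudocount of 0.1, 30 of the 66 stayed called. Among all tested genes, 88 had a mutant mean under 10% of the wild type at both stages, and 55 of these were called, of which 31 held at 0.1.

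Spns1, a transporter of lysosomal lysophospholipids, shows this. It read 85.7, 77.9, 79, 93.3 and 86.8 in wild-type eggs and 0.689, 1.27, 0.833, 0.796 and 0.894 in mutant eggs. In FG follicles it read 8.61, 7.48, 5.04 and 7.81, and 0.0368, 0, 0.0174 and 0.017 in the mutant. Nearly all of the transcript was missing at both stages, yet the difference was −2.50 (SE 0.19, adjusted p = 6.57e-08), and it was −0.49 and no longer called with a pseudocount of 0.1. Vcp, the AAA ATPase of protein degradation, read 3.15, 2.56, 2.18, 4.43 and 4.25 in wild-type eggs and 0.0927 to 0.214 in mutant ones. The fall in FG follicles was from 20.3, 28.6, 23.1 and 27.2 to 1.16, 1.11, 1.15 and 1.34. Its difference of 1.66 became 0.45 at a pseudocount of 0.1, and was not called there.

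Riok2, a kinase of small ribosomal subunit maturation, was listed at 0 in all mutant egg libraries and at 0.0954 to 0.353 in mutant FG follicles, against 0.729 to 1.39 and 11.9 to 15.9 in the wild type. The difference of 2.54 was called at both pseudocounts, and was 1.9 with 0.1. With mutant eggs at 0, the size of the egg effect was set by the wild-type level and the pseudocount (−1.05 with 1 and −3.53 with 0.1). The call at 0.1 therefore does not by itself show that the effect differs. The SUMO ligase pias2, the scaffold protein grasp, and the Fanconi anemia gene fancg likewise stood at mutant means of at most 0.396 at both stages. The sign for spsb1 turned from −1.10 to 0.28 at a pseudocount of 0.1. Its wild-type and mutant means were 219 and 1.48 in eggs and 48.2 and 0.176 in FG follicles.

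Other members of the class changed by clearly unequal sizes. Mt2, a metallothionein that binds zinc and copper, read 0.835, 3.01, 1.32, 1.24 and 1.3 in wild-type eggs and 6.52, 5.67, 3.14, 3.91 and 8.87 in mutant eggs. Its rise in FG follicles was from 21.3, 11.1, 7.38 and 12.6 to 173, 159, 216 and 185. The effects were 1.37 and 3.79, a difference of −2.43 (SE 0.39, adjusted p = 0.000712), which held under every alternative fit. Ehd1a, a membrane-remodelling ATPase of endosome recycling, rose more in eggs, from 1.23, 1.3, 1.11, 2.41 and 1.78 to 9.8, 14.3, 14.5, 11.2 and 15.6, than in FG follicles, from 6.19, 5.98, 6.17 and 5.92 to 14.8, 11.3, 14.2 and 20. The difference was 1.3 (SE 0.24, adjusted p = 0.0026).

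The GTPase rab11a of recycling endosomes rose in eggs, 4.53 against 25.1, and in FG follicles, 7.64 against 19.8. Its difference of 0.94 was not scaling-stable and was 0.28 with quantile normalization. N6amt1, a methyltransferase, fell in eggs, 19 against 3.31, and in FG follicles, 17 against 11, and pik3cg, a phosphoinositide 3-kinase subunit, from 13.9 to 1.03 and from 3.21 to 0.828. Urahb, of urate breakdown, fell from 26.7 to 0.735 and from 5.83 to 0.160, and its difference of −1.44 was −0.26 and not called at a pseudocount of 0.1. The largest difference of all 733 in the fit of all libraries was that of CABZ01059627.2, which the table describes as mucin-5AC and which was chosen here after its values were seen. Wild-type eggs read 0, 0, 0, 0.0929 and 10.1, so that library 5 alone set their mean, and mutant eggs 10.7, 15, 15.9, 14.8 and 16.5. FG follicle means were 0.230 and 215 in wild type and mutant. The difference of effects was −4.24 (SE 0.71, adjusted p = 0.000971), which was not called at a pseudocount of 0.1. Without wild-type egg library 5 it was −3.56, smaller in size than that of nupr1b (4.15).

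Of the 261 genes low in eggs, 258 were called in FG follicles, and the FG estimate was a rise for 152 of the 261 and a fall for 109. In eggs 33 were called even so, 30 of them in the same direction as in the follicles, and the egg and FG estimates shared their sign for 207. The difference held at a pseudocount of 0.1 for 64. Nupr1b, a chromatin protein of the stress response, read 22.5, 29.4, 14.8 and 31.3 in wild-type FG follicles and was listed at 0 in all mutant libraries of both stages. Wild-type eggs read 0.53, 0.315, 0.315, 0.379 and 0.227. The difference of 4.19 (SE 0.22, adjusted p = 1.41e-09) had the smallest adjusted p of all, although the transcript was lost at both stages.

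Mrpl1, a mitochondrial ribosomal protein, showed the same shape. It read 25.8, 37.1, 34.6 and 33.7 in wild-type FG follicles against 0.79, 0.352, 0.195 and 0.417 in mutant ones, and 1.75, 0.209, 0.541, 0.77 and 0.727 in wild-type eggs against 0 to 0.064 in mutant eggs. Foxa, a forkhead transcription factor, went from 14.4, 9.19, 8.39 and 10.9 to 0.028, 0, 0 and 0 in FG follicles. In eggs it went from 0.327, 0.31, 0.416, 0.685 and 0.793 to 0 in 4 libraries and 0.032 in the other. Ptx3b, a long pentraxin, and rida, a deaminase of reactive imines, completed the 5 largest falls by rule, at a mean of 9.65 to 0.115 and 7.38 to 0.118 in FG follicles.

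Among genes that rose in FG follicles and were low in eggs, rrp8, a methyltransferase of ribosomal RNA, read 0 to 0.103 in all 10 egg libraries. In FG follicles it went from 0.0243, 0.26, 0.126 and 0.188 to 3.59, 2.64, 4.2 and 2.92, a difference of −1.88 (SE 0.14, adjusted p = 5.89e-08). Gemin4, of the SMN complex, rose from 1.59, 2.49, 0.0553 and 0.04 to 7.33 to 9.35 in mutant libraries. Means rose for the amino acid transporter slc43a2b from 0.487 to 4.64, rarres3 from 0.0848 to 4.11, and the dynein heavy chain dync1h1 from 1.12 to 4.79. Ppp2r5ca, a regulatory subunit of protein phosphatase 2A, read 0.155, 5.44, 0.144 and 0.0989 in wild-type FG follicles and 6.78, 8.47, 6.09 and 7 in mutant ones. Wild-type library 2 stood far above the others, without reaching the mutant. The difference was −2.08 with all libraries and −2.7 without that library, and its call was lost in 23 of 35 alternative fits.

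Granulosa markers gave 2 called genes of 14 tested (14.3%, against 6.95% of all genes and 2.72% lower), both lower and low in eggs: hsd17b1, an estrogen-synthesis enzyme (2.18 to 9.86 in FG follicles), and the estrogen receptor esr2a (1.34 to 3.15). Summed FPKM of the 33 granulosa markers was 78.8 to 127 in wild-type FG follicles and 160 to 262 in mutant ones, and 29.5 to 38.2 and 38.1 to 137 in eggs, led by cyp11a1, hsd3b2 and igf3, with hsd17b3 at 0 in all libraries. The sum was thus higher in mutant FG follicles without overlap, with medians of 96.9 and 169. In eggs the medians were 31.2 in the wild type and 99.4 in the mutant, with ranges that just overlapped. Of the 33 granulosa markers, 16 stayed under an FPKM of 1 in all libraries. The part of the granulosa sum in the changes of genes low in eggs, or of genes that rose in eggs, was not tested. Of 9 tested theca and stromal markers 1 was called, fn1a, low in FG follicles. Summed FPKM of the 22 theca and stromal markers overlapped between genotypes at both stages, with lower medians in the mutant. The medians were 79.7 in wild-type and 69.8 in mutant eggs, and 97.2 and 87.6 in FG follicles. No tested gene of the endothelial (2), erythrocyte (2) or liver (1) lists was called. The summed endothelial level, like the granulosa sum, was apart in FG follicles, at 5.22 to 7.11 in the wild type and 8.03 to 9.65 in the mutant. It was higher still in eggs, at 9.97 to 13.2 in the wild type and 11.3 to 19.3 in the mutant. Of the 17 endothelial markers, 15 stayed under an FPKM of 1 in all libraries. The sum is thus a weak measure of endothelial cells, and its part was not tested either.

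The 22 genes low in FG follicles were all called in eggs. Hsd17b2, an enzyme that inactivates estradiol, was listed at 0, 0, 0, 0.0912 and 0.306 in wild-type eggs and at 3.98, 6.2, 3.17, 1.99 and 3.34 in mutant eggs. Levels in FG follicles were 0.42, 0.302, 0.34 and 0.323, and 1.01, 0.585, 0.896 and 0.582 in the mutant, without overlap at either stage and in the same direction. The difference was 1.70 (SE 0.25, adjusted p = 0.000291). Acot7 rose from 1.75 to 6.66 in eggs, abi3b from 0.837 to 3.60, iffo1a from 0.469 to 2.32 and dnajc4 from 0.347 to 1.47.

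Eif4g3b, a scaffold of the cap-binding translation complex, fell from 2.65, 3.78, 3.96, 4.91 and 2.77 to 0.2, 0.177, 0.335, 0.22 and 0.218 in eggs. The FG follicle values fell from 0.415, 0.843, 0.511 and 0.482 to 0.0382, 0.0502, 0.0152 and 0.0291. The difference of −1.3 (SE 0.18, adjusted p = 0.000138) was not called at a pseudocount of 0.1. Tsnaxip1 was listed at 0 in the mutant means of both stages, from 1.73 in wild-type eggs and 0.325 in wild-type FG follicles. Bmp2k, pstpip1b and hecw2b fell in eggs from 2.65 to 0.371, from 1.57 to 0.167 and from 4.19 to 1.55.

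**Figure D5:**
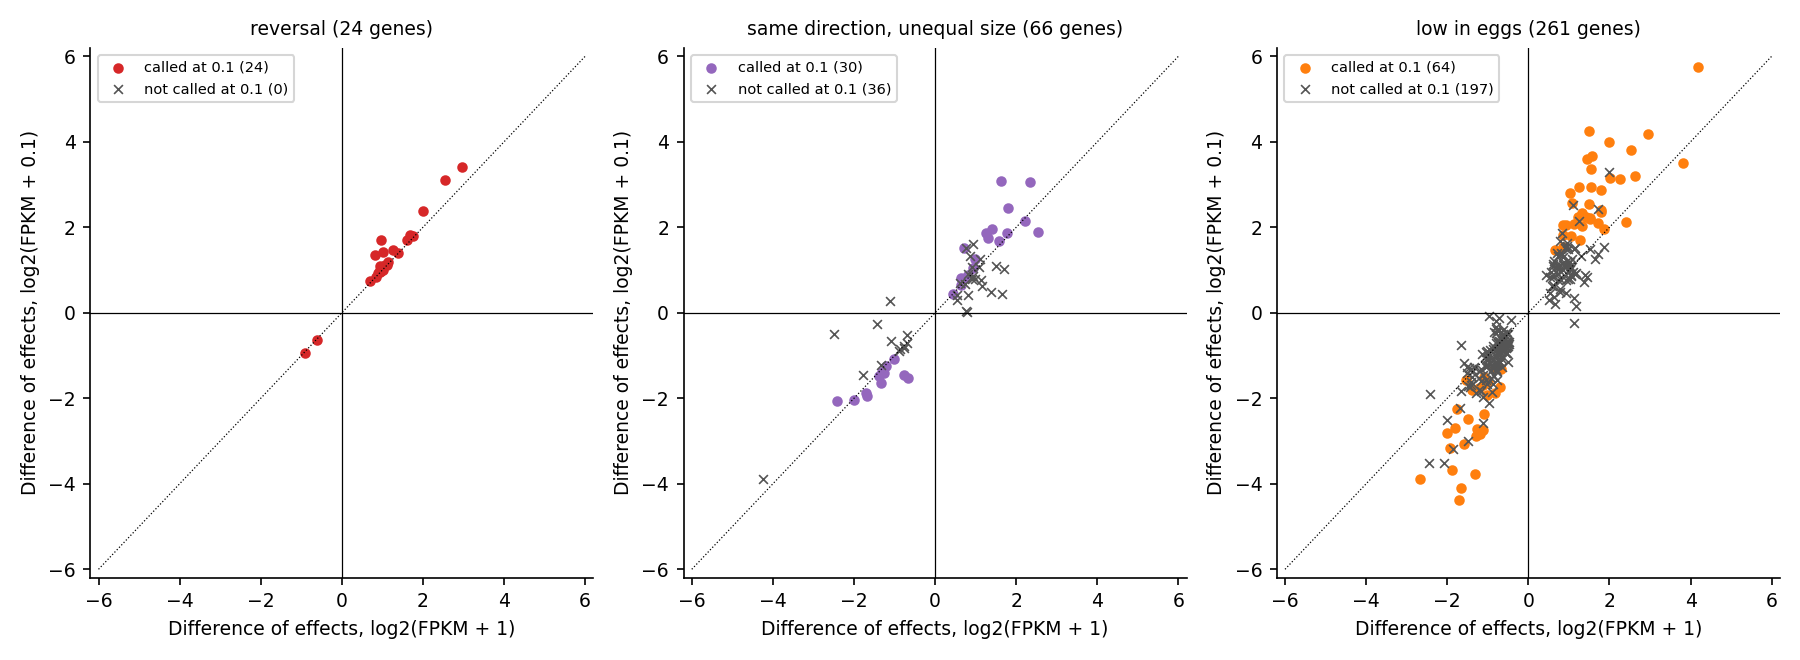
Difference of genotype effects with a pseudocount of 0.1 (vertical axis) against that with a pseudocount of 1 (horizontal axis) for reversals (24 genes), genes called in the same direction (66) and genes low in eggs (261). Filled points stayed called at 0.1 and crosses did not, and the dotted line marks equality. The difference stayed called for all 24 reversals, against 30 of 66 and 64 of 261. By the calls within stages, 18 of the 24 were still reversals at 0.1.

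The 22 genes called at neither stage had opposite estimates that passed as a difference only. They included mt-nd4l (0.67 and −0.70), mt-cyb (0.69 and −0.61) and mt-nd3 (0.51 and −0.66), the Mediator subunit med31 (0.55 and −0.43), vapal, of membrane contact sites (0.48 and −0.35), and npc1, the lysosomal cholesterol transporter (0.40 and −0.37). With the other sign were mgrn1a, a ubiquitin ligase (−0.53 and 0.58), the repressor rest (−0.34 and 0.54), the deacetylase hdac6 (−0.43 and 0.39) and gtpbp4, of large ribosomal subunit assembly (−0.36 and 0.36). None of the 22 was scaling-stable, and 2 held at a pseudocount of 0.1.

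Several lists of oocyte pathways held few or no called genes with the deposited values. None was called of 14 tested zona pellucida genes of the egg coat, which had a median effect of 0.43 in eggs and 0.82 in FG follicles. None was called of 15 tubulins, of 28 genes of the SIN3 complex or of 27 maternal transcription and axis genes. At 35 genes, kinesins and dynein gave 1 call (dync1h1), microtubule-binding genes 1 of 33 (map7d3), kinetochore and spindle genes 1 of 39 (ndc80), and maturation and M-phase genes 1 of 39 (cdc26). Median-of-ratios scaling and quantile normalization turned the sign for map7d3 (−0.09 and −0.35) and cdc26 (−0.04 and −0.10). These shares, from 0 to 3.03%, were under the background of 6.95%, but lists this small would hold few calls at that background. With quantile normalization, 3 of the 14 zona pellucida and 6 of the 39 maturation and M-phase genes were called. TPM, median-of-ratios scaling and quantile normalization each called 1 SIN3 complex gene. Tubulins and maternal transcription and axis genes had 0 calls under each of the 4 other scalings.

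Shares of the other lists stand against the same background of 6.95%. DNA repair and Fanconi genes gave 6 of 43 (2 lower, fancm and fancg, and 4 higher, among them mlh3 and ercc5), a share of 14.0%, and junction genes 4 of 25 (tjp3 and cldn12 higher, cdh13 and cldn17 lower), a share of 16.0%. Membrane traffic gave 6 of 119, at 5.04%. Oocyte and germ plasm genes gave 3 of 34 (8.82%), with cnot6l and h1m higher and gdf9 lower. H1m fell in FG follicles alone, from 1300 to 879. Chromatin repressors gave 3 of 43 (6.98%): cbx3a, of heterochromatin, fell in FG follicles from 138 to 76.6, hdac9b was low in eggs and hdac6 was called at neither stage. Histones gave 2 of 25, or 8% (hist1h2a11 lower and h2afvb higher), and pre-mRNA splicing 2 of 71, or 2.82% (srsf3a and srsf1a, both higher). The symbols hist1h2a11 and srsf3a each stand for several genes in the table, of which 1 was called. Maternal mRNA decay and translation gave 5 of 104 (4.81%), with eif4g3b and eif3d lower and cnot6l, cnot7 and eif4ebp3l higher. Endoplasmic reticulum translocation and glycosylation gave 5 of 69, or 7.25% (dpm3, srp19, pigu and srp54 higher, ssr1 lower), lysosome and V-ATPase 2 of 40, or 5% (npc1 higher, spns1 lower), and extracellular matrix and integrins 2 of 24, or 8.33% (timp2a higher, fn1a lower). Timp2a turned to −0.25 at a pseudocount of 0.1. Antioxidant and metal genes gave 2 of 25, or 8% (zgc:92066 higher, mt2 lower), the p53 pathway and stress list 1 of 27, or 3.7% (nupr1b), and purine and nucleotide metabolism 1 of 26, or 3.85% (urahb).

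Some members lay next to each other on chromosomes, and whether more did so than the number of members alone would give was not tested. Of 9615 tested genes placed by symbol in the RefSeq order of assembly GRCz12tu, 662 were members, and 78 of 9590 neighbouring pairs had both genes called, 44 with the same sign and 34 with opposite signs. The longest run went from pias2 through fancg, vcp, riok2 and atxn2 to si:dkey-65b12.12, with differences of 1.69, −0.90, 1.66, 2.54, 0.86 and 2.35. A run of 4 held spns1 (−2.50), nfatc2ip (1.13), sgf29 (1.86) and nupr1b (4.19). In these 2 runs each gene was estimated lower in the mutant at both stages, and the sign of the difference followed the stage with the higher wild-type level. Further runs of 4 were nr4a1 (−0.86), grasp (1.76), rnf41 (−1.09) and the reversal si:ch211-226m16.2, then emc1, eif4g3b, phc2a and spsb1, and si:dkey-58f10.7 (a symbol that 2 tested genes share), cnot6l, mrpl1 and bmp2k. Each of these 3 joined genes of different classes.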

How the data were processed

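The deposited table holds FPKM values for 25432 genes in 18 library columns, all used and matched to samples by title. The authors' chain names Trimmomatic, HISAT2, Cufflinks and HTSeq with build GRCz11, per the submitters' processing notes, with no version, role or order, so how shared or antisense reads were counted is not given in the sources used here. Whole counts could not be recovered. Depth is therefore unknown, and the errors given come from variation among females.

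From the deposited FPKM, log2(FPKM + 1) of 10547 genes entered linear models in limma 3.58.1 (R 4.3.3; lmFit, then eBayes with trend) and data.table, version 1.17.8, as 4 group means with 14 residual degrees of freedom and no batch term. Contrasts were the genotype effect in each stage and their difference, each adjusted by Benjamini-Hochberg over all genes. All adjusted p-values of genes are from this fit. Classes follow the calls within stages. Low means a mean FPKM under 1 in both genotypes of a stage. Library measures were compared by exact permutation of genotype labels within stages (17640 arrangements).

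The members, the 34 gene lists (1843 members matched by symbol, 10 by synonym and 32 not matched) and the tests were chosen with earlier results of these data known. Genes were named by rule among called genes with a proper symbol that no other tested gene shares: reversals up to the 10 largest differences each way, the 10 largest each way called in eggs alone or in FG follicles alone (mean FPKM of at least 1 in a genotype at both stages), the 5 largest each way in the same-direction, neither-stage, low-in-eggs and low-in-FG classes, and up to 3 called members of each list. That named 130 genes. The text adds all other reversals, neighbours and list members, chosen after values were seen. A few genes that the rule or a list names are not reported here. RefSeq annotation of GRCz12tu gave synonyms and gene order only. It is not the build of the values, and no coordinates are printed.

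Replicate numbers were checked for pairing. Deviations of same-numbered wild-type and mutant libraries correlated at 0.112 to 0.447 in eggs and at −0.118 to −0.023 in FG follicles. Neither range shows that the number pairs libraries. The block among eggs was added after seeing the data, as was the averaging of mutant FG libraries 1 and 3. Steps were tested on simulated data.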

Additional observations from a re-analysis of the deposited data

Results flagged for a closer look

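By the limma test of the difference, 733 genes were called. Of these, 24 were reversals by the further limma calls within each stage. Exact permutation within stages flagged the mitochondrial share of FPKM, 12.7 percentage points, and summed FPKM, 60841. The mitochondrial transcripts are part of that sum, so these measures are not separate.

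Among 176 groups of 4 or 5 libraries tested over 40 genes and 4 library measures, a single library stood far from the others of its group in 9, about the number that chance flags at 1 in 20. For hmgb2b, mutant egg library 3 read 752 against 566 to 580. For hint3, mutant egg library 1 read 1.87 against 3.72 to 4.29. Rell1 read 53 in mutant FG library 4 against 38.7 to 40.6. Mrps34 read 1.38 in wild-type egg library 2 against 1.99 to 2.22, and 16.2 in mutant FG library 2 against 23.8 to 24.8. Foxa read 0.032 in mutant egg library 3 and 0.028 in mutant FG library 1, with 0 in the others. Eif4g3b read 0.335 in mutant egg library 3 against 0.177 to 0.22. Mutant FG library 2 had 10120 genes that reached an FPKM of 1, against 9854 to 9893. The 6 genes named here stayed called in every fit that left out 1 library.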

How the results depend on the processing

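The mitochondrial share kept its direction and its call in every alternative (10.8 to 14.3 points without 1 library). The sinhcaf difference was 0.324 to 0.766 without 1 library, with no exact permutation p under 0.05. In limma it was 0.07 to 0.8 over 35 alternative fits and became called in 1 of them. The ribosomal protein share ranged from −1.22 to −0.852 without 1 library, with exact permutation p of 0.024 without wild-type FG library 4 (−1.22) and 0.0457 without library 2 (−1.15). Without 1 library, 562 to 843 genes were called, 13 to 30 were reversals and 222 to 339 were low in 1 stage. The fewest reversals came without mutant FG library 1 (13) or 3 (14), and averaging these also left 13.

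The 733 calls became 372 with a pseudocount of 0.1, 1193 with 5, 381 with a mean FPKM of at least 1 at both stages, 473 with TPM, 484 with TPM without the mitochondrial genome, 2379 with array weights per library, 317 at an adjusted p under 0.01 and 315 with a difference of at least 1. The 24 reversals became 38 with quantile normalization, 163 with array weights, 56 with egg libraries 1 to 3, 3 at an adjusted p under 0.01, 13 with a difference of at least 1, and 10 when no overlap was also required. The 283 genes low in 1 stage became 75 and 493 with the lower and higher pseudocount, 124 with TPM without the mitochondrial genome, 697 with array weights, 114 with egg libraries 4 and 5, 145 at an adjusted p under 0.01 and 130 with a difference of at least 1. The causes were not tested.

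With the replicate number as a block among eggs there were 1174 calls and 72 reversals, with a block nested in stage 856 and 47, and with 1 block over all groups 747 and 32.

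Signs turned at a pseudocount of 0.1 for timp2a (−0.25) and spsb1 (0.28), with median-of-ratios scaling for map7d3 (−0.09), cdc26 (−0.04) and mrps22 (0.00), and with quantile normalization for map7d3 (−0.35), cdc26 (−0.10), mt-cyb (−0.06), mt-atp8 (−0.10) and mt-co1 (−0.07). Of 173 genes refitted, 56 kept call and direction in all of up to 36 alternatives and 62 of the others lost the call in at most 3. Depth is unknown, so no floor can be given for values near 0.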
